A study of Mus musculus with 24 samples.

Results

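The CC chemokine genes Ccl2, Ccl3, Ccl4, Ccl5, Ccl6, Ccl9, Ccl17 and Ccl22 were followed across 6 transfections of a mouse leukaemia line. They were found by gene name among the array probes that are not controls, and all 8 were present, of 30342 distinct gene names on the array. Each has 1 probe, and the Ccl2 probe is printed in 10 spots. Ccl2 was well above background on 0 of 24 arrays and was the only member never detected. Ccl22 was well above background on 4 of 24 arrays, and never on all 4 arrays of a group. The other 6 members entered the tests.

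CC chemokines are small secreted proteins that attract leukocytes through G protein-coupled receptors. Ccl3, Ccl4 and Ccl5 are inflammatory chemokines that attract monocytes and T cells, and Ccl3 and Ccl5 are ligands of the receptor CCR1. Ccl6 and Ccl9 are mouse ligands of CCR1, Ccl17 and Ccl22 are ligands of CCR4, and Ccl2 draws monocytes through CCR2. Many chemokine genes are targets of NF-kB, the transcription factor of which p65/RelA is a subunit, and myeloid cells are a major source of Ccl3, Ccl4, Ccl6 and Ccl9.

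DA1-3B is a Bcr-Abl-positive mouse leukaemia line, given in the labels as strain C3H eOuJ and grown in DMEM with 10% FCS. Cells received plasmids for the N-terminal and the C-terminal fragment of p65/RelA together (p1-361+p363-549, called both fragments here), the C-terminal fragment alone (p363-549), the N-terminal fragment alone (p1-361), the mutant D361E, the wild-type protein (WT) or an empty plasmid (VOID). Each group has 4 one-colour arrays, and all groups share the one parent line. The 2 places that define the C-terminal fragment, sample names and treatment protocol, differ by 1 residue in where it begins. Nothing in the labels says that a group's 4 samples came from separate cultures, so p-values measure only the spread between these samples, which may be technical. All comparisons with VOID share its 4 arrays.

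Levels are log2 processed signal minus the log2 of the same array's 75th percentile, which ran from 635.8 to 1214, and 49.4% to 55.5% of spots were well above background. The number of arrays limits the precision. Rela, the transfected gene, was higher than VOID in both-fragment cells by 0.47 on the log2 scale (adjusted p = 0.00623), in p363-549 cells by 0.49 (adjusted p = 0.0161) and in p1-361 cells by 0.43 (adjusted p = 0.0411). Its difference was 0.36 in D361E cells (adjusted p = 0.127) and 0.40 in WT cells (adjusted p = 0.0795), with an SE of 0.10 throughout. Where the Rela probe lies relative to the sequence in each plasmid was not looked up, so it is a weak check of the labels. Of the markers of a blood cell line, 7 of 9 were above background on all arrays, Cd34 on 1 array and Kit on 0. In bulk RNA, fewer cells of a type and less RNA per cell cannot be told apart.

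3 arrays went against their labels. Over 200 genes, members left out, each array's profile was compared with every group's mean over the arrays of the remaining sample sets. For 21 of 24 arrays the best match was the labelled group. The array labelled both fragments replicate 4 correlated at r = -0.09 with its own group and at r = 0.71 with p1-361. For the array labelled p363-549 replicate 4, r was -0.56 with its own group and 0.97 with both fragments. For the array labelled p1-361 replicate 4, r was 0.14 with its own group and 0.78 with p363-549. These correlations run across genes, which are not independent replicates. For the 6 tested members, called differences that use these 3 arrays are also given without them. So are counts over those 6 in most comparisons. Rela, the genes flanking members on chromosome 11, marker genes and sums, and counts over other gene lists are given with all arrays only.

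The probes of 5 members lie within 138.8 kb of chromosome 11 in mm9, the build of the file headers. The Ccl5 probe is at chr11:83339296-83339355, Ccl9 at chr11:83388223-83388282, Ccl6 at chr11:83401997-83402056, Ccl3 at chr11:83461358-83461417 and Ccl4 at chr11:83478052-83478111. All are on the minus strand except Ccl4. The Ccl2 probe is also on chromosome 11, at chr11:81850650-81850709, 1488.6 kb away. The Ccl22 probe at chr8:97274709-97274768 and the Ccl17 probe at chr8:97335770-97335829 are 61.1 kb apart on chromosome 8. The exon or UTR under each probe was not looked up, since no mm9 annotation was used here.

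Promoter sequence, 250 bases before the gene start, was taken from RefSeq (GRCm38.p6) for the members with an entry. It is shown for Ccl3 and Ccl17, each of which was lower in both-fragment cells than in VOID cells, and for the neighbours Ccl6 and Ccl9, of which Ccl6 was called and Ccl9 was not. The windows are chr11:83649379-83649628 for Ccl3, chr11:83593088-83593337 for Ccl6, chr11:83578637-83578886 for Ccl9, all on the minus strand, and chr8:94810203-94810452 on the plus strand for Ccl17. Capitals mark matches, on either strand, to the kappaB consensus or to TATAAA.
Ccl3: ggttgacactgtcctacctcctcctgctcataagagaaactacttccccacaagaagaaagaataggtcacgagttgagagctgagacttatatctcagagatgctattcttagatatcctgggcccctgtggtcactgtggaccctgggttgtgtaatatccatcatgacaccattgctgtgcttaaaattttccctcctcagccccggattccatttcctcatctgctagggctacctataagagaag
Ccl6: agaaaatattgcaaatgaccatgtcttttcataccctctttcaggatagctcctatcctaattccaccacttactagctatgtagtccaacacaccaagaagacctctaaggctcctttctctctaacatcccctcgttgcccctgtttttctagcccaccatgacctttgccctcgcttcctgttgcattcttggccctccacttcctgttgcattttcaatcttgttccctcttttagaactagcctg
Ccl9: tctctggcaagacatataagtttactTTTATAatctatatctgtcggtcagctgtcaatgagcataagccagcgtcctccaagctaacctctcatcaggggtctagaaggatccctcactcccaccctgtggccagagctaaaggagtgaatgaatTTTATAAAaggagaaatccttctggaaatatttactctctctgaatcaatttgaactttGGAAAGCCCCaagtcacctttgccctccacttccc
Ccl17: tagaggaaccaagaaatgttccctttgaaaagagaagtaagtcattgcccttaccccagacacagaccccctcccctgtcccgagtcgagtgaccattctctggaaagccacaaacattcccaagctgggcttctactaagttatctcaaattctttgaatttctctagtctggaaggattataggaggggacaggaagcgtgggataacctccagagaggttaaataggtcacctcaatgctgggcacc
The kappaB consensus was matched once, on the minus strand of the Ccl9 window, from 35 to 26 bases before the start. TATAAA was matched 3 times in the Ccl9 window, with the last matches, one per strand, overlapping. The windows of Ccl3, Ccl6 and Ccl17 hold neither string. Of all 32851 RefSeq windows of this length, 3.9% hold the kappaB consensus and 12.4% hold TATAAA. Ccl6 and Ccl9 share a run of 13 bases, GCCCTCCACTTCC, and the other pairs among the members with a window share runs of 6 to 10 bases. A match is only a match of letters.

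Ccl3 had its highest mean in D361E cells and was not above background on any array of the both-fragment or p363-549 groups. Its log2 levels were -7.06, -6.96, -6.60 and -5.34 in both-fragment cells and -5.40, -5.22, -5.03 and -7.05 in p363-549 cells. They were -3.87, -3.75, -4.00 and -5.22 in p1-361 cells and -1.81, -1.15, -1.58 and -2.48 in D361E cells. WT cells had -4.39, -3.70, -3.94 and -4.67, and VOID cells had -3.13, -2.75, -2.20 and -2.96. The arrays numbered 4 of both fragments and p1-361 sat at the level of p363-549 replicates 1 to 3, and the array numbered 4 of p363-549 sat at the level of both-fragment replicates 1 to 3.

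Ccl3 was above background on 3 of 4 arrays in p1-361 cells and in WT cells, and on all 4 in D361E and VOID cells. Because Ccl3 was not detected on the both-fragment and p363-549 arrays, folds against them are written as at least N-fold. The reference is each array's lowest level of a probe well above background or the probe's own level, whichever was higher. It is not the detection limit of the Ccl3 probe, so these folds are not strict bounds. On WT replicate 4 Ccl3 lay at -4.67, above that array's lowest detected level of -4.86, and was not above background. Ccl3 was at least 5.20-fold lower in both-fragment cells than in VOID cells (measured mean log2 levels -6.49 and -2.76, adjusted p = 2.89e-05), and at least 5.50-fold lower without the 3 arrays (adjusted p = 6.13e-09). It was at least 3.95-fold lower in p363-549 cells than in VOID cells (-5.67 and -2.76, adjusted p = 0.00114), and at least 3.71-fold without the 3 arrays (adjusted p = 4.20e-05). Adjusted p-values are limma's, with Benjamini-Hochberg adjustment over 15059 genes in each comparison, and a call has an adjusted p under 0.05. The D361E minus VOID difference was 1.00 on the log2 scale (SE 0.44, adjusted p = 0.669), the p1-361 minus VOID difference was -1.46 (SE 0.44, adjusted p = 0.176) and the WT minus VOID difference was -1.42 (SE 0.44, adjusted p = 0.308). Without the 3 arrays, the p1-361 difference of -1.12 (adjusted p = 0.0370) and the WT difference of -1.42 (adjusted p = 0.00539) were called lower.

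**Figure D1:**
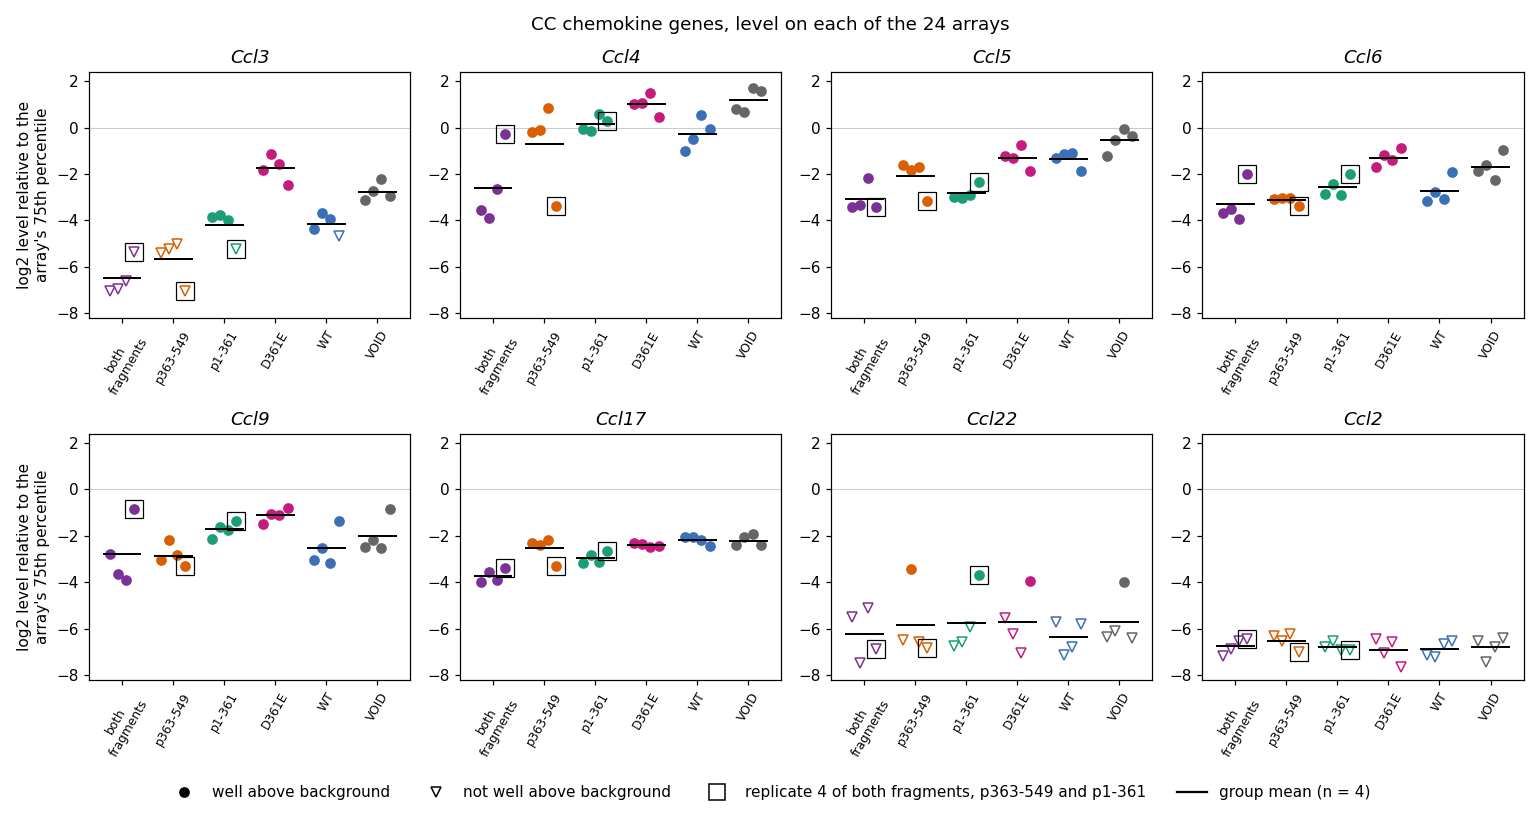
Log2 level of each member relative to its array's 75th percentile (y) by transfection group (x), 1 point per array, with the group mean as a bar. Filled circles are well above background, open triangles are not, and squares mark the 3 arrays numbered 4. Ccl3 lies between -7.06 and -1.15, Ccl2 is open on all 24 arrays, and 4 Ccl22 points are filled. Levels are not compared between genes.

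Ccl3 was higher in D361E cells than in WT cells by 2.42 on the log2 scale (SE 0.44, adjusted p = 0.0266; 3.04e-05 without the 3 arrays), and these groups did not overlap. Ccl3 was at least 10.4-fold lower in both-fragment cells than in D361E cells (mean log2 levels -6.49 and -1.75, adjusted p = 3.60e-06) and at least 7.91-fold lower in p363-549 cells than in D361E cells (-5.67 and -1.75, adjusted p = 8.13e-05). Leaving out the 3 arrays, these were at least 11.0-fold (adjusted p = 4.97e-10) and at least 7.44-fold (adjusted p = 7.58e-07). The p1-361 minus D361E difference was -2.46 on the log2 scale (SE 0.44, adjusted p = 0.0127), and -2.12 without the 3 arrays (adjusted p = 0.000295). Against WT cells it was at least 1.95-fold lower in both-fragment cells (-6.49 and -4.17, adjusted p = 0.0127), and at least 2.06-fold without the 3 arrays (adjusted p = 3.57e-06). With slide as a fixed block that call was lost (adjusted p = 0.0553). The WT mean includes replicate 4, on which Ccl3 was not above background. From the highest mean down, Ccl3 ran D361E, VOID, WT and p1-361, with p363-549 and both fragments below them and in no order between themselves. No adjacent pair among the first 4 passed the test with all arrays, and without the 3 arrays p1-361 (-3.88) lay above WT (-4.17). The D361E against WT call was lost when any of D361E replicates 1 to 3 or any WT replicate was left out, with differences of 2.22 to 2.66 over all single arrays left out and adjusted p up to 0.137.

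Ccl4, an inflammatory chemokine gene that lies beside Ccl3, was lower in both-fragment cells. Its log2 levels were -3.53, -3.89, -2.63 and -0.29 in both-fragment cells and -0.20, -0.09, 0.83 and -3.39 in p363-549 cells. They were -0.07, -0.16, 0.58 and 0.30 in p1-361 cells and 1.03, 1.06, 1.50 and 0.44 in D361E cells. WT cells had -1.004, -0.51, 0.52 and -0.04, and VOID cells had 0.80, 0.69, 1.70 and 1.57. The both-fragment array numbered 4 was level with the single-fragment groups, and the p363-549 array numbered 4 was level with the other both-fragment arrays, while all both-fragment arrays lay below all VOID arrays. The both-fragment minus VOID difference was -3.78 on the log2 scale (SE 0.71, adjusted p = 0.00297), and -4.55 (SE 0.39, adjusted p = 1.56e-07) without the 3 arrays. The both-fragment minus D361E difference was -3.59 (SE 0.71, adjusted p = 0.00606), and -4.36 (adjusted p = 3.16e-07) without the 3 arrays.

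The fragments given singly, D361E and WT left Ccl4 without a call against VOID. The differences from VOID were -1.90 in p363-549 cells (SE 0.71, adjusted p = 0.468; -1.01 and 0.369 without the 3 arrays, p363-549 replicate 4 among them), -1.03 in p1-361 cells (SE 0.71, adjusted p = 0.878), -0.18 in D361E cells (SE 0.71, adjusted p = 1.00) and -1.45 in WT cells (SE 0.71, adjusted p = 0.902). The interval of the D361E difference ran from -1.66 to 1.29 on the log2 scale (95%). From the highest mean down, Ccl4 ran VOID, D361E, p1-361, WT, p363-549 and both fragments, with no adjacent pair past the test with all arrays. The place of p363-549 rests on replicate 4, since without the 3 arrays its mean of 0.18 lay above p1-361 (0.12) and WT (-0.26). WT and both fragments were then adjacent, and the both-fragment minus WT difference of -3.09 was called (adjusted p = 3.61e-05). With all arrays it was -2.33 and was not called (adjusted p = 0.147).

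Ccl5 (RANTES) was lower in all 3 fragment groups than in VOID cells. Its log2 levels were -3.43, -3.34, -2.16 and -3.44 in both-fragment cells and -1.63, -1.81, -1.68 and -3.15 in p363-549 cells. They were -3.002, -3.03, -2.92 and -2.36 in p1-361 cells and -1.24, -1.29, -0.76 and -1.87 in D361E cells. WT cells had -1.31, -1.14, -1.08 and -1.86, and VOID cells had -1.24, -0.53, -0.05 and -0.36. Every fragment array lay below every VOID array, and the D361E and WT arrays overlapped both VOID and p363-549. The difference from VOID was -2.55 on the log2 scale in both-fragment cells (SE 0.35, adjusted p = 0.000167), -1.52 in p363-549 cells (SE 0.35, adjusted p = 0.0453) and -2.28 in p1-361 cells (SE 0.35, adjusted p = 0.00102). Leaving out the 3 arrays, it was -2.43 in both-fragment cells (adjusted p = 2.61e-05) and -2.44 in p1-361 cells (adjusted p = 9.44e-05). It was -0.75 in D361E cells (SE 0.35, adjusted p = 0.743) and -0.81 in WT cells (SE 0.35, adjusted p = 0.744). The p363-549 difference was -1.16 without the 3 arrays and lost its call (adjusted p = 0.110; with slide as a fixed block 0.147), as it also did with any of 16 of the 24 arrays left out in turn.

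Against the other full-length forms, Ccl5 was lower in both-fragment cells than in WT cells by a log2 difference of -1.74 (SE 0.35, adjusted p = 0.0168) and lower than in D361E cells by one of -1.80 (SE 0.35, adjusted p = 0.00481). Leaving out the 3 arrays gave -1.63 (adjusted p = 0.00278) and -1.69 (adjusted p = 0.00140), and with slide as a fixed block the call against WT was lost (adjusted p = 0.102). Ccl5 differed by 0.06 between D361E and WT cells (SE 0.35, 95% interval -0.66 to 0.78). From the highest mean down, Ccl5 ran VOID, D361E, WT, p363-549, p1-361 and both fragments, and no adjacent pair passed with all arrays. The last pair lay at -2.98 each without the 3 arrays. Both fragments then lay below p363-549 by a log2 difference of -1.27, which was called (adjusted p = 0.0167).

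Ccl6 and Ccl9, neighbouring genes that encode CCR1 ligands in the mouse, had their highest group mean in D361E cells. Ccl6 had log2 levels of -3.67, -3.51, -3.94 and -1.998 in both-fragment cells and -3.07, -3.04, -3.05 and -3.36 in p363-549 cells. Its levels were -2.87, -2.44, -2.93 and -1.99 in p1-361 cells and -1.71, -1.18, -1.41 and -0.87 in D361E cells. WT cells had -3.17, -2.76, -3.07 and -1.92, and VOID cells had -1.87, -1.63, -2.24 and -0.99. In 5 of the 6 groups the array numbered 4 was the highest, and in p363-549 cells it was the lowest. Ccl6 was lower in both-fragment cells than in VOID cells by a log2 difference of -1.60 (SE 0.36, adjusted p = 0.0111; -2.02 and 0.000103 without the 3 arrays), a call that was lost without both-fragment replicate 1 (adjusted p = 0.0521). The p363-549 minus VOID difference of -1.45 did not pass (SE 0.36, adjusted p = 0.0798) with all arrays and did without the 3 arrays (-1.37, adjusted p = 0.0261). Against D361E cells Ccl6 was lower in both-fragment cells (log2 difference -1.98, SE 0.36, adjusted p = 0.00293) and in p363-549 cells (-1.83, SE 0.36, adjusted p = 0.0153). Leaving out the 3 arrays gave -2.41 (adjusted p = 1.49e-05) and -1.75 (adjusted p = 0.00249), and with slide as a fixed block the p363-549 call was lost (adjusted p = 0.0502). In D361E cells Ccl6 read 1.43 above WT cells on the log2 scale (SE 0.36, adjusted p = 0.231), and without the 3 arrays this same difference was called higher (adjusted p = 0.0163). From the highest mean down, Ccl6 ran D361E, VOID, p1-361, WT, p363-549 and both fragments, with no call between neighbours in that order. WT (-2.73) and p1-361 (-2.75) changed places without the 3 arrays.

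Ccl9 was called in no comparison of the group means fitted to all 24 arrays. Its log2 levels were -2.77, -3.63, -3.91 and -0.85 in both-fragment cells and -3.05, -2.19, -2.84 and -3.31 in p363-549 cells. They were -2.14, -1.60, -1.73 and -1.38 in p1-361 cells and -1.47, -1.04, -1.11 and -0.82 in D361E cells. WT cells had -3.05, -2.54, -3.18 and -1.35, and VOID cells had -2.49, -2.19, -2.54 and -0.84. The arrays numbered 4 of both fragments, WT and VOID were the highest of their groups by 1 or more log2 units. The both-fragment minus VOID difference was -0.78 on the log2 scale (SE 0.52, adjusted p = 0.428), and -1.42 without the 3 arrays (SE 0.43, adjusted p = 0.0435), where it was called lower. The both-fragment minus D361E difference was -1.68 (SE 0.52, adjusted p = 0.0722), and -2.33 without the 3 arrays (adjusted p = 0.00140), where it was also called. The D361E minus VOID difference was 0.91 (SE 0.52, adjusted p = 0.932). Its means ran, from the highest down, D361E, p1-361, VOID, WT, both fragments and p363-549, and the last pair changed places without the 3 arrays (-3.44 in both-fragment and -2.70 in p363-549 cells).

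Ccl17, a CCR4 ligand that attracts T helper and regulatory T cells, had the smallest spread within groups of the 6 tested members in D361E and WT cells. Its log2 levels were -4.00, -3.54, -3.92 and -3.38 in both-fragment cells and -2.32, -2.38, -2.17 and -3.30 in p363-549 cells. They were -3.18, -2.84, -3.13 and -2.65 in p1-361 cells and -2.29, -2.34, -2.48 and -2.42 in D361E cells. WT cells had -2.06, -2.04, -2.18 and -2.45, and VOID cells had -2.41, -2.05, -1.94 and -2.41. All both-fragment arrays lay below every other array of the series, and the p363-549 array numbered 4 came closest. Ccl17 was lower in both-fragment cells than in VOID cells by a log2 difference of -1.51 (SE 0.21, adjusted p = 0.000169), than in WT cells by one of -1.53 (SE 0.21, adjusted p = 0.000508) and than in D361E cells by one of -1.33 (SE 0.21, adjusted p = 0.000885). Leaving out the 3 arrays, these differences were -1.62 (adjusted p = 5.66e-07), -1.64 (adjusted p = 9.37e-07) and -1.44 (adjusted p = 3.02e-06). The p1-361 minus VOID difference was -0.75 (SE 0.21, adjusted p = 0.123), and it was called lower without the 3 arrays (-0.85, adjusted p = 0.00297). WT minus VOID was 0.02 on the log2 scale (SE 0.21, 95% interval -0.41 to 0.45), and D361E minus VOID was -0.18 (95% interval -0.61 to 0.25). From the highest mean down, Ccl17 ran WT, VOID, D361E, p363-549, p1-361 and both fragments, and with all arrays no neighbours in that order differed past the test. Without the 3 arrays p363-549 (-2.29) lay above D361E (-2.39).

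**Figure D2:**
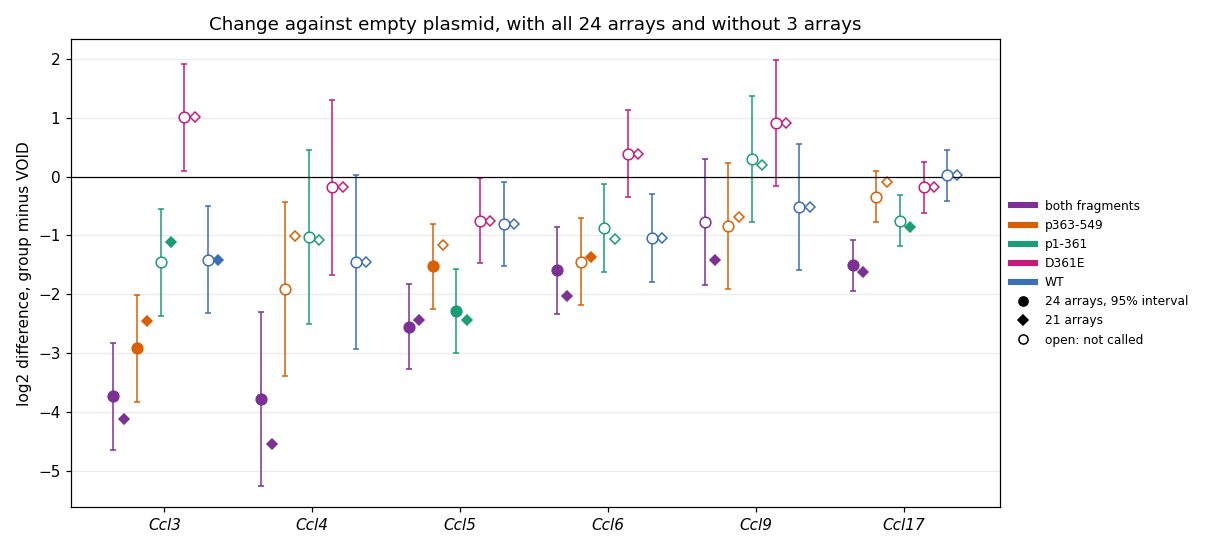
Log2 difference from VOID (y) for the 6 tested members (x) in each p65 group, by colour. Circles use 24 arrays and carry 95% intervals, diamonds leave out the 3 arrays numbered 4, and open symbols were not called. Both-fragment differences from VOID run from -3.78 for Ccl4 to -0.78 for Ccl9, and no circle of D361E or WT is filled. Ccl3 was not above background in both-fragment and p363-549 cells, so its points there show measured signal and not a size of change.

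Ccl22, the other CCR4 ligand, was detected on single arrays only. It was above background on p363-549 replicate 2 (log2 level -3.44), on p1-361 replicate 4 (-3.71), on D361E replicate 4 (-3.96) and on VOID replicate 3 (-4.00). Its other 20 arrays lay between -7.48 and -5.10. The 4 arrays with a signal came from 4 different groups, and 1 array in a group gives no comparison. Ccl2, the monocyte attractant, lay between -7.67 and -6.23 on the 24 arrays. Even the Ccl2 array nearest to detection was 1.26 log2 units below that array's lowest level of a probe well above background, so no group difference in Ccl2 was detectable at this signal.

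**Figure D3:**
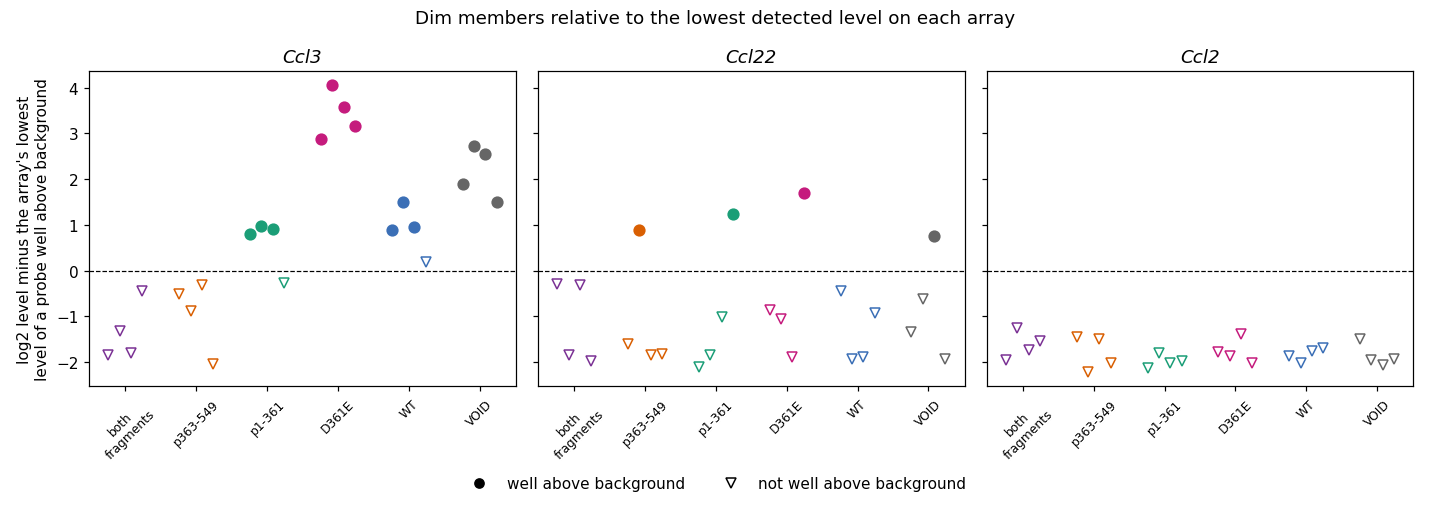
Log2 level of Ccl3, Ccl22 and Ccl2 minus the lowest level of a probe well above background on the same array (y), by transfection group (x), 1 point per array. Filled circles are well above background and open triangles are not. All 24 Ccl2 points are below 0, and the highest Ccl3 point, in D361E cells, is at 4.06.

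Over the members as a set, both-fragment cells had the most calls against VOID. In both-fragment cells 5 of the 6 tested members were called lower than in VOID cells, where 2.5% of all genes tested were called lower, and without the 3 arrays 6 of 6 were, against 4.93% of all genes. The median log2 difference of the 6 members was -2.07, and that of all genes was -0.01. In p363-549 cells 2 members (Ccl3 and Ccl5) were called lower than in VOID cells, against 0.405% of all genes, with a member median of -1.49 and an all-gene median of 0.03. In p1-361 cells 1 member (Ccl5) was, against 0.332% of all genes, with medians of -0.95 and -0.01. In D361E cells 0 members were called lower or higher, where 0.226% and 0.432% of all genes were, 1 member had an unadjusted p under 0.05 in each direction, and the medians were 0.10 and -0.02. In WT cells 0 were called lower, against 0.246% of all genes, 3 had an unadjusted p under 0.05 in that direction, and the medians were -0.93 and -0.04. No member was called higher than VOID in any group, where 1.95% of all genes were in both-fragment cells, 0.179% in p363-549 cells, 0.352% in p1-361 cells and 0.239% in WT cells. Without the 3 arrays 2 members were called lower than VOID in p363-549 cells (Ccl3 and Ccl6, 0.575% of all genes), 3 in p1-361 cells (Ccl3, Ccl5 and Ccl17, 1.38%) and 1 in WT cells (Ccl3, 0.601%). Because the members were chosen with earlier results known, these counts describe them.

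Against WT cells, 3 members (Ccl3, Ccl5 and Ccl17) were called lower in both-fragment cells, where 0.95% of all genes were. In D361E cells 1 member (Ccl3) was called higher than in WT cells, against 0.0398% of all genes. In p363-549 and p1-361 cells 0 members were called lower than in WT cells, where 0.113% and 0.0797% of all genes were, and 1 and 2 members had an unadjusted p under 0.05. Leaving out the 3 arrays, the counts against WT were 4 lower in both-fragment cells (3.46% of all genes), 2 lower in p1-361 cells (0.346%) and 2 higher in D361E cells (0.32%). Against D361E cells, 5 members were called lower in both-fragment cells (2.54% of all genes), 2 in p363-549 cells (0.471%) and 1 in p1-361 cells (0.12%). These counts were 6 (5.66%), 2 (0.96%) and 4 (0.601%) without the 3 arrays. The moderated F test for any difference among the 6 groups called 5 of 6 members, all but Ccl9 (adjusted p = 0.233), and 2.82% of all genes. It called 6 of 6 and 10.1% of all genes without the 3 arrays.

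Between both fragments and the single fragments the calls differed with and without the 3 arrays. With all arrays, limma called 0 members and 0% of all genes in both fragments against p363-549 or against p1-361, where 3 and 4 members had an unadjusted p under 0.05. Without the 3 arrays, 4 members were called lower in both-fragment cells than in p363-549 cells, where 9.2% of all genes were, and 4 were called lower than in p1-361 cells, against 6.65% of all genes. Between p363-549 and p1-361 cells limma called 0 members and 0% of all genes with all arrays, with an unadjusted p under 0.05 for 3, and 1 (Ccl17, higher in p363-549 cells, 0.261% of all genes) without the 3 arrays. Ccl3, Ccl4 and Ccl17 were among the 4 in both comparisons of both fragments with a single one, but Ccl3 was above background on 0 arrays of both fragments and of p363-549, so that call compares groups in which it was not detected. The Ccl4 differences were then -3.53 from p363-549 cells (SE 0.42, adjusted p = 1.31e-05) and -3.47 from p1-361 cells (SE 0.42, adjusted p = 2.04e-05), and the Ccl17 differences were -1.53 (SE 0.16, adjusted p = 4.34e-06) and -0.77 (SE 0.16, adjusted p = 0.00586).

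Additivity was read as the both-fragment change from VOID less the sum of the changes of each fragment alone. With all arrays 0 of 6 members were called in either direction, and 0.093% of all genes were called below and 0.12% above additivity. The log2 departures ran from -0.84 for Ccl4 (SE 1.01, adjusted p = 0.705) to 1.26 for Ccl5 (SE 0.49, adjusted p = 0.299), and Ccl5 had the only unadjusted p under 0.05 of the 6. When the 3 arrays were left out, Ccl4 lay below additivity by a log2 departure of -2.46 (SE 0.57, adjusted p = 0.0121), so both-fragment cells had less Ccl4 than the summed single changes give, where 6.61% of all genes were called in that direction. The Ccl3 departure rests on 2 groups that were not above background.

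Slides held arrays of several groups, so the same differences were read within slides and with slide as a block. Both-fragment and VOID arrays shared 2 slides. Within them Ccl4 differed by -4.21 and -4.22 on the log2 scale, Ccl5 by -1.81 and -2.90, Ccl6 by -2.95 and -2.04, and Ccl17 by -1.51 and -1.95. All of these lay below 0. With slide as a fixed block Ccl3 was called lower in both-fragment cells than in VOID cells (adjusted p = 0.000180). The blocked differences of Ccl4 (-3.70, adjusted p = 0.00523), Ccl5 (-2.43, adjusted p = 0.00281) and Ccl17 (-1.47, adjusted p = 0.00156) were called, and that of Ccl6 was not (-1.54, adjusted p = 0.0603). D361E and WT arrays also shared 2 slides, where Ccl3 differed by 3.52 and 1.91. With normexp background correction in place of the scanner's subtraction, 15 of the 20 calls of single members were lost, among them Ccl3, Ccl6 and Ccl17 in both-fragment against VOID cells. Ccl4 (-2.94, adjusted p = 0.00553) and Ccl5 (-1.66, adjusted p = 0.00383) kept that call.

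Along chromosome 11 the changes of the 5 clustered members were set beside those of the 10 nearest tested genes, 5 on each side in RefSeq order. In both-fragment cells 4 of the 5 members and 1 of the 10 flanking genes were called lower than in VOID cells with all arrays, where 2.5% of all genes tested were. Without the 3 arrays all 5 members were called lower, where 4.93% of all genes were. The flanking genes were not read without the 3 arrays. The flanking gene was Taf15, an RNA-binding protein gene next to Ccl5, with a log2 difference of -0.61 (adjusted p = 0.00891). Among the flanking genes the both-fragment differences ran from -0.79 for Dusp14 to 0.10 for Ddx52. No gene of this stretch was called in D361E cells against VOID.

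**Figure D4:**
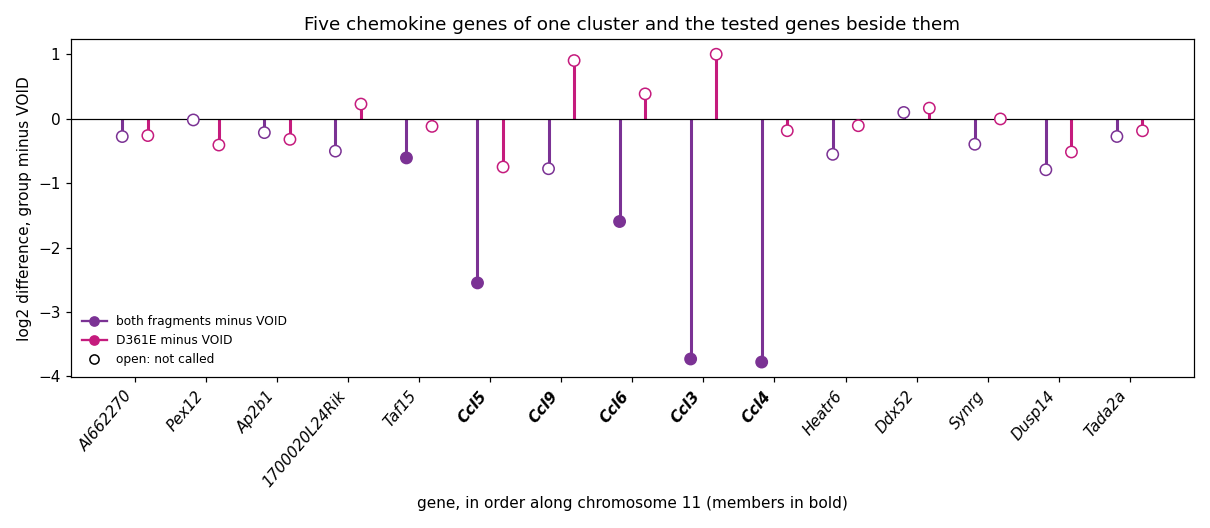
Log2 difference from VOID (y) in both-fragment and D361E cells for the 5 clustered members and 10 flanking genes, in their order along chromosome 11 (x, not to scale). Filled points were called with all arrays. Ccl4 reaches -3.78 in both-fragment cells, where Ccl3 was not above background and its point gives no size of change, and Taf15 at -0.61 is the only flanking gene called.

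Among other chemokine pathway genes, few were both detected and called. Of the other CC chemokines, 12 were on the array, 6 were never above background and 2 were tested, with 0 called against VOID in any group and 0 with an unadjusted p under 0.05 in limma's test. Of the CC chemokine receptors, 11 were on the array, 5 never above background and 4 tested, and Ccr7, the receptor that guides leukocytes to lymph nodes, was lower in both-fragment cells than in VOID cells (log2 difference -2.75, SE 0.67, adjusted p = 0.0195; -3.36 and 5.29e-05 without the 3 arrays). Ackr1, an atypical receptor that binds chemokines without G protein signalling, was called lower (adjusted p = 0.000953; 6.12e-08 without the 3 arrays), the single call among 3 tested atypical receptors. Since Ackr1 was above background on 1 of 4 both-fragment arrays and on 4 of 4 VOID arrays, no size is given. Without the 3 arrays Ackr1 was also called lower than VOID in D361E cells (adjusted p = 0.00354) and in WT cells (adjusted p = 0.000917). In contrast to the CC members, Pf4 and Ppbp, CXC chemokines of platelets, were higher in both-fragment cells by 3.51 (SE 0.62, adjusted p = 0.00178; 3.91 and 4.57e-10 without the 3 arrays) and 3.49 (SE 0.91, adjusted p = 0.0296; 3.67 and 0.000144), 2 of the 6 tested chemokines of the other classes. Without the 3 arrays Pf4 was also called higher than VOID in p363-549 (1.02, adjusted p = 0.0268), p1-361 (2.88, 1.35e-07), D361E (1.99, 8.60e-06) and WT cells (1.71, 5.10e-05). Ppbp was then called higher in p1-361 (4.13, adjusted p = 0.000141), D361E (3.18, 0.00120) and WT cells (2.22, 0.0354), and not in p363-549 cells (0.99, 0.636). With all arrays these were not called. Among 5 tested genes of chemokine mRNA decay and processing, 0 were called against VOID in any group by limma with all arrays, with an unadjusted p under 0.05 for 0 to 2 of them. Of these, Zfp36l2 was called lower in both-fragment than in D361E cells (log2 difference -0.75, SE 0.19, adjusted p = 0.0296; -0.97 and 0.000117 without the 3 arrays). Without the 3 arrays Zfp36l2 was also called against VOID, lower in both-fragment cells (-0.53, adjusted p = 0.0199) and higher in p363-549 cells (0.60, adjusted p = 0.0488).

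Of the NF-kB subunits and inhibitors, 10 of 12 were tested. Calls higher than VOID numbered 6 in both-fragment cells, 2 in p363-549 cells, 1 in p1-361 cells, 4 in D361E cells and 4 in WT cells. Rela, the transfected gene, is in this list. It is among the calls in both-fragment cells (adjusted p = 0.00623) and p363-549 cells (adjusted p = 0.0161). It is the only call in p1-361 cells (adjusted p = 0.0411). Whether its signal came from the plasmids was not tested. Of all genes, 1.95% were called higher in both-fragment cells, 0.179% in p363-549 cells and 0.352% in p1-361 cells. Tnfaip3, which encodes the feedback inhibitor A20, was higher in D361E cells by 1.79 on the log2 scale (SE 0.27, adjusted p = 0.000986) and in WT cells by 2.34 (SE 0.27, adjusted p = 2.41e-05). Nfkbia, which encodes the inhibitor IkB-alpha, was higher by 1.58 in D361E cells (SE 0.29, adjusted p = 0.00697) and by 1.70 in WT cells (SE 0.29, adjusted p = 0.00362). Nfkbie was higher in both-fragment cells by 1.12 (SE 0.20, adjusted p = 0.00204; 1.37 and 4.66e-06 without the 3 arrays) and Tnip1, an A20-binding protein gene, by 0.88 (SE 0.15, adjusted p = 0.00141; 0.91 and 0.000594). In the same D361E and WT cells 0 of the 6 tested CC members were called against VOID with all arrays. Of all genes, 0.226% were called lower and 0.432% higher in D361E cells, and 0.246% and 0.239% in WT cells. In WT cells 3 members were lower with an unadjusted p under 0.05 in limma's test, and the member median was -0.93. Without the 3 arrays Ccl3 was called lower in WT cells (adjusted p = 0.00539).

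Sums over markers of some blood cell types were lower in both-fragment cells than in VOID cells without overlap, and others overlapped. The signal summed over 10 mast cell and basophil markers, in multiples of the array's 75th percentile, was 0.646 to 4.74 in both-fragment cells, 0.646 to 5.78 in p363-549 cells, 3.40 to 10.4 in p1-361 cells, 3.08 to 4.15 in D361E cells, 7.53 to 13.0 in WT cells and 8.35 to 23.9 in VOID cells. Of these markers 3 were above background on all arrays and Ms4a2 on none. The both-fragment minus VOID log2 differences of the 3 were -5.08 for Cma1, -0.23 for Tpsb2 and -0.17 for Hdc. Fcer1a, Cpa3 and Mcpt8, above background on 15, 21 and 12 of 24 arrays, were also called lower by limma (adjusted p = 3.14e-06, 0.000702 and 0.00607). Mcpt4, above background on 22 arrays, read lower without a call (adjusted p = 0.0772). No sizes are given for markers that were not above background on all arrays. In D361E cells the mast cell and basophil sum lay below that of every VOID array. The sum over 11 monocyte and macrophage markers was 5.06 to 10.4 in both-fragment cells, 7.62 to 26.5 in D361E cells and 11.2 to 17.0 in VOID cells, with 5 above background on all arrays and Mrc1 on none. Within this list Ly6c1 and Lyz2, above background on 12 and 17 of 24 arrays, were called higher in both-fragment cells than in VOID cells (adjusted p = 0.00985 and 0.0399). No size is given for them. Of the 5 above background on all arrays, Itgam (log2 difference -1.02), Cd68 (-0.59) and Csf1r (-0.17) read lower, and Fcgr1 (0.20) and Lyz1 (0.77) higher, each without a call. Adgre1, above background on 20 arrays, read lower without a call (adjusted p = 0.0806). The neutrophil sum was 0.376 to 1.32 in both-fragment cells and 0.780 to 0.918 in VOID cells, and the dendritic cell sum was 26.5 to 50.2 and 32.1 to 62.2. The sum over 10 T and NK cell markers was 4.18 to 46.1 in both-fragment cells and 23.5 to 90.0 in VOID cells, with Cd8a, Gzma, Ncr1 and Klrb1c on none. The sum over the 9 blood cell line markers was 58.2 to 86.2 in both-fragment cells and 112.2 to 153.0 in VOID cells. Its tested members differed from VOID by -1.28 for Csf2rb2 to 0.28 for Abl1 on the log2 scale, with Ptprc at -0.09. The 8 erythroid and megakaryocyte markers were above background on all arrays. Their sum was 58.9 to 77.0 in both-fragment cells and 84.4 to 180.3 in VOID cells, with log2 differences from -3.81 for Hbb-bt to 1.69 for Gp1ba. The B cell sum was 1.69 to 2.63 and 1.99 to 2.43. The part of these markers in the chemokine differences was not tested. The sum over 8 fibroblast and epithelial markers was at most 0.196 on any array.

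The genes whose levels were most like each member over the 24 arrays were named by Pearson correlation, as a description, since arrays of a group share their transfection. For Ccl3 they were Asb2 (r = 0.93), P2rx4 (r = 0.92) and the unnamed probe A_55_P2175146 (r = 0.91). For Ccl4 they were C3ar1 (r = 0.97), Wfikkn2 (r = 0.97) and A_55_P2007495 (r = 0.96). For Ccl5 they were 4933411E08Rik, Txk and Fcer1a (each r = 0.88). The genes most like Ccl6 were Ifitm6, Itgax and Spn (each r = 0.92), and those most like Ccl9 were Itgax (r = 0.94), Cebpe (r = 0.90) and Cpne2 (r = 0.88). Itgax was thus named for both of these neighbours. For Ccl17 they were Slc30a2 (r = 0.91), Cth (r = 0.89) and Serpinb1a (r = 0.89).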

How the data were processed

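Total RNA of 24 samples was labelled with Cy3 and measured on 24 one-colour Agilent arrays, spread over 6 slides. Per the file headers, images were read with Feature Extraction 10.7.3.1; the authors' deposited processed signal is an intensity, linear and background-subtracted, with no scaling across arrays. The intensities of the series-wide file were identical to these. Here, log2 intensities were set relative to each array's 75th percentile, after leaving out uneven spots (185 to 312 per array) and averaging the spots of a probe.

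A probe was kept if at least 1 group had all 4 of its arrays well above background (19524 probes), and each of 15059 genes was represented by its brightest probe. All 24 arrays entered one limma 3.58.1 fit (R 4.3.3, 18 residual and 3.06 prior degrees of freedom) with a mean for each group, 16 comparisons and 2-sided moderated tests. Named genes were the members, up to 4 called genes of each list by F test p, and the 3 genes most correlated with each member. Rela, as the transfected gene, and Taf15, Dusp14 and Ddx52, after their values were seen, were added.

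The members, lists, tests, alternatives and the 3 arrays left out were chosen with earlier results of these data known. Alternatives were normexp (offset 50), quantile normalization, a percentile over detected probes, no filter, the series-wide file, slide as a fixed or random block (statmod 1.5.0), a replicate block, only the arrays compared, other probe choices, and arrays left out. Replicate numbers follow sample order. Same-numbered samples were not treated as pairs, because the labels do not pair them and not every correlation of their deviations from group means was over 0.1: over 60 such pairs it ran from -0.34 to 0.76 (median 0.40), 47 were over 0.1, and 19 of 24 arrays were closest to their own set.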

Additional observations from a re-analysis of the deposited data

Results flagged for a closer look

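Of 48 member and group combinations, 7 had 1 array set apart from the other 3 by Dixon's criterion for 4 samples, where chance flags about 1 in 20. Ccl3 in p1-361 cells was lowest on replicate 4, at a log2 level of -5.22 against -4.00 on the nearest array. Ccl5 was highest on replicate 3 of both fragments (-2.16, nearest -3.34), lowest on replicate 4 of p363-549 (-3.15, nearest -1.81) and highest on replicate 4 of p1-361 (-2.36, nearest -2.92). Ccl6 was lowest on replicate 4 of p363-549 (-3.36, nearest -3.07). Ccl22 was highest on replicate 2 of p363-549 (-3.44, nearest -6.49) and on replicate 3 of VOID (-4.00, nearest -6.08), both among the arrays where it was above background.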

How the results depend on the processing

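Of 69 member differences recomputed under 12 alternatives and with each of 24 arrays left out (2484 values), 2341 kept their direction and side of the threshold, 68 lost a call, 61 gained one and 14 changed sign; each that changed sign was not called. Numbers of members called changed as follows, with smaller changes not listed. Under normexp they were 2 (both fragments against VOID), 0 (p363-549 against VOID, both fragments against WT, and D361E against WT), 2 (pairs among the fragments and D361E) and 2 (any difference), where all-gene calls for both fragments against VOID were 214, against 670. Without a filter, p363-549 against VOID had 1 and D361E against WT had 0. Slide as a fixed block gave 1 for p363-549 against VOID and 1 for both fragments against WT. Slide as a random block (correlation -0.06) gave 1 for p363-549 against VOID and 0 for D361E against WT. Only the arrays compared gave 1 for p363-549 against VOID, 1 for both fragments against WT and 1 for p1-361 against WT. In that setting 7 of the 20 calls of single members were lost. Among them were Ccl6 in both fragments against VOID, and Ccl4, Ccl5 and Ccl6 in both fragments against D361E. Without the 3 arrays, counts were 3 (p1-361 against VOID), 1 (WT against VOID), 2 (p1-361 against WT), 2 (D361E against WT), 21 (pairs among the fragments and D361E) and 1 (additivity). With sets of sample numbers as a replicate block, which the labels do not call pairs, 20 of 20 calls were kept and the counts were 1 (WT against VOID, Ccl6), 2 (D361E against WT) and 18 (pairs). With this block Ccl9 was called in both fragments (adjusted p = 0.0130) and p363-549 (0.0400) against D361E, and all-gene calls were 2090 for both fragments against p363-549 and 2378 against p1-361, where the fit without it called 0. The causes of these changes were not tested.

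With each array left out in turn, counts ran from 4 to 6 (both fragments against VOID), 1 to 3 (p363-549 against VOID), 1 to 2 (p1-361 against VOID), 0 to 2 (p1-361 against WT), 1 to 4 (both fragments against WT), 0 to 2 (D361E against WT), 6 to 17 (pairs) and 4 to 6 (any difference). The Ccl3 call in p1-361 against D361E cells was lost without D361E replicate 2 or 3 (adjusted p up to 0.0832), that of Ccl6 in p363-549 against D361E cells without D361E replicate 2 or 4 (up to 0.0599), and those of both fragments against WT without replicate 1 or 2 of both fragments or WT replicate 2 for Ccl3 (up to 0.0794) and also WT replicate 1 or 3 for Ccl5 (up to 0.0988). Signs changed for the additivity of Ccl3 (-0.54 without the 3 arrays), of Ccl17 (0.048 under normexp) and of Ccl9 (-0.89 to 0.13, arrays left out), for Ccl4 in D361E against VOID (0.055 with slide as a fixed block, and -0.35 to 0.005), Ccl5 in D361E against WT (-0.15 under normexp, and -0.12 to 0.25) and Ccl17 in WT against VOID (-0.10 with slide as a fixed block, and -0.049 to 0.11). Dim signal limits Ccl3, Ccl22 and Ccl2.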
